A study of Saccharomyces cerevisiae with 6 samples.

Results

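The genes for the proteins of the large subunit of the cytosolic ribosome of budding yeast, Saccharomyces cerevisiae, were followed in 6 libraries of strand-specific, rRNA-depleted total RNA. They were chosen by name, as protein-coding genes called RPL or RPP followed by a number and an optional A or B, which took 82 of 5795 genes. The pattern also takes in RPP1 (YHR062C), which is known as a subunit of RNase P, an enzyme that matures tRNA, and not as a ribosomal protein. The other 81 genes code for 46 ribosomal proteins, with 70 genes in 35 pairs of A and B copies and 11 genes that stand alone. RPP1 is given apart from them.

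The libraries came from gat1-delta cells grown in glutamine-containing medium, gat1-delta cells grown in proline-containing medium, and dal80-delta cells grown in glutamine-containing medium. Each group had 2 replicates. Gat1 and Dal80 are GATA-family transcription factors of nitrogen catabolite repression, and glutamine is a preferred and proline a poor nitrogen source for yeast. No wild-type library was analysed here, so a difference between the strains cannot be assigned to either deletion, and the medium was compared in cells without Gat1 only. Both comparisons use the same 2 gat1-delta glutamine libraries.

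The libraries held 17009715 to 34718641 recovered reads, and levels are given as scaled reads, the deposited read counts, which the authors had scaled so that the genes of each library sum to about the same number. GAT1 had 2 to 3 reads in each gat1-delta library against 1603 and 1062 in dal80-delta. DAL80 had at most 1 read in a dal80-delta library, 2 and 1 in gat1-delta glutamine, and 195 and 497 in gat1-delta proline. In glutamine the DAL80 reads thus do not tell the strains apart. The strains also differed in mating-type transcripts. The α-factor gene MF(ALPHA)1 stood at 14357 or more scaled reads in every gat1-delta library and at 20.4 and 29.7 in dal80-delta. The a-factor gene MFA1 stood at 8.76 and 8.90 in gat1-delta glutamine, at 1117 and 919 in gat1-delta proline, and at 2620 and 2940 in dal80-delta. The proline libraries held transcripts of both mating types, and the part of this in the values below was not tested.

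These proteins sit around the rRNA of the large subunit, most of them as a single copy and the stalk proteins P1 and P2 as dimers. In yeast most of them are encoded by a pair of genes left from an ancient duplication of the genome, whose proteins are identical or nearly so. Rap1, Fhl1, Ifh1 and Sfp1 are known to drive transcription of these genes together in growing cells under the control of the TORC1 kinase, which responds to nitrogen. Several copies are also known to be held in balance after transcription, by splicing or decay of their own transcripts.

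How far a read can tell the copies of a pair apart depends on their sequence. Coding sequences of the 35 pairs were 68.9% to 99.4% identical, with a median of 93.2%, and 12 pairs code for identical proteins. The share of the stretches of 50 bases in a coding sequence, the length of a read, that also occur in its partner had a median of 10.5% and reached 80.99%. It was above 50% in 6 pairs, RPL1, RPL4, RPL7, RPL11, RPL35 and RPL41, and 0 in 10 pairs. How reads with several matches were counted is not given in the sources used here, so the values of the copies in those 6 pairs are uncertain. RPL22, RPL15 and RPL1 are shown because they run from a pair with no shared stretch of 50 bases, through the most unequal pair, to the pair that shares most. Each line holds 120 bases of coding sequence from the last exon, close to the stop codon, from RefSeq, build R64, with capitals at the positions where the copies differ. The stretches lie at chrXII:263804-263923 (plus strand) and chrVI:64271-64390 (minus) for the RPL22 copies, chrXII:201976-202095 (minus) and chrXIII:509734-509853 (minus) for the RPL15 copies, and chrXVI:136324-136443 (plus) and chrVII:255175-255294 (plus) for the RPL1 copies.
RPL22A: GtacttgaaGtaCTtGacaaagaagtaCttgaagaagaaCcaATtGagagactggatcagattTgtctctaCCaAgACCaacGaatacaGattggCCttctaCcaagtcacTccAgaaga
RPL22B: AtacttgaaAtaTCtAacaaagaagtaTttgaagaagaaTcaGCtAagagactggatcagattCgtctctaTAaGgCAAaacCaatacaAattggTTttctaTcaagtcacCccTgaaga
RPL15A: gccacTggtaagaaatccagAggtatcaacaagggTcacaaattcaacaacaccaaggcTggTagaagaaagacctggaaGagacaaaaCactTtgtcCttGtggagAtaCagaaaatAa
RPL15B: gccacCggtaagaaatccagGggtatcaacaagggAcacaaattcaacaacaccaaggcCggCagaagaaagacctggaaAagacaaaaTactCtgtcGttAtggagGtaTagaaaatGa
RPL1A: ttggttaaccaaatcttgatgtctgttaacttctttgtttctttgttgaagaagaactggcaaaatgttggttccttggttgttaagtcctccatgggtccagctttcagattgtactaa
RPL1B: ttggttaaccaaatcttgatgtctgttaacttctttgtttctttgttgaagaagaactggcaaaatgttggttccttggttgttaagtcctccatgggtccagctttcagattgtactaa
The copies differed at 24 of the 120 positions in RPL22, at 13 in RPL15 and at 0 in RPL1.

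The upstream regions of RPL22A, RPL22B and RPP0 are shown. The RPL22 copies were chosen because their ratio changed with the medium, and RPP0 because it was among the genes that fell most. The windows run from 400 to 101 bases before the start codon, 300 bases each, at chrXII:262794-263093 (plus strand), chrVI:65033-65332 (minus) and chrXII:805487-805786 (plus) of build R64. Capitals mark matches, on either strand, to a Rap1-type motif (CACCC, any 2 bases, then ACA), a short form of the site Rap1 is known to bind, and to GATAAG, a form of the GATA-factor site.
RPL22A: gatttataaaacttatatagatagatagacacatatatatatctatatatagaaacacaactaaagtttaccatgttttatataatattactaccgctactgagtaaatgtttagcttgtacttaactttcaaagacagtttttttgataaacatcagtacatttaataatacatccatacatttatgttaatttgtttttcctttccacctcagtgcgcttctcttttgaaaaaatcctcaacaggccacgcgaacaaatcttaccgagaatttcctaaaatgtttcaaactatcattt
RPL22B: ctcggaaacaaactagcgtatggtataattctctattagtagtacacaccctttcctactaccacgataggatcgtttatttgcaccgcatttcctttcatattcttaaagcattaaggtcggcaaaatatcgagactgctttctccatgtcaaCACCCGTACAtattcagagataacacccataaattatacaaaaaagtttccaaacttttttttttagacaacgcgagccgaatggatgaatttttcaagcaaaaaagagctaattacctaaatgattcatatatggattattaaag
RPP0: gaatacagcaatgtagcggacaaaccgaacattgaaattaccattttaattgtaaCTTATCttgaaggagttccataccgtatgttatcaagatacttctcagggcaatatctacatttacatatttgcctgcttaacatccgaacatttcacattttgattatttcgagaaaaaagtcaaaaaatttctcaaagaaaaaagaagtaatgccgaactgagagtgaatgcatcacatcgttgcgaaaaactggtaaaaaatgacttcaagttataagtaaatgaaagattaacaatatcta
RPL22B held a match to the Rap1-type motif, RPP0 a match to GATAAG on the other strand, and RPL22A neither. Over the 78 windows of large-subunit genes that could be read, 16 (20.5%) held the Rap1-type motif, against 97 of 5734 (1.69%) over all genes and 9 of 47 (19.1%) over small-subunit genes. GATAAG was found in 6 (7.69%) against 803 (14.004%) over all genes. A match describes the letters of a window and is not a binding site measured here, and the GATA word does not overlap the other.

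Levels between genes were compared as scaled reads per kilobase of coding sequence, averaged over the 2 libraries of a group. In gat1-delta glutamine the 81 genes ran from 259 for RPL15B to 55841 for RPL41A, with a median of 16515. In gat1-delta proline they lay closer together. The standard deviation of the log2 level over genes was 1.20 in gat1-delta glutamine, 0.84 in gat1-delta proline and 1.26 in dal80-delta glutamine. With A and B added up to a level per protein, it was 0.69, 0.43 and 0.80. The acidic stalk proteins had the highest summed levels in both glutamine groups, with RPP2A plus RPP2B at 100289 ± 4033 and RPP1A plus RPP1B at 86736 ± 2801 in gat1-delta glutamine (SD, n = 2). In proline RPP2A plus RPP2B came to 57194 ± 1898. Among the 11 genes without a partner, RPP0 was highest in gat1-delta glutamine at 45485 ± 3397 and RPL39, the small protein of the exit tunnel wall, lowest at 11317 ± 2409.

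The 82 genes together took 6.91% and 6.42% of gene reads in gat1-delta glutamine, 5.40% and 5.72% in gat1-delta proline, and 5.65% and 6.06% in dal80-delta glutamine. Both proline libraries and both dal80-delta libraries lay below both gat1-delta glutamine libraries. The exact permutation test of 2 libraries against 2 gave p = 0.333 for either difference, two-sided, the smallest it can give. The 5 stalk genes RPP0, RPP1A, RPP1B, RPP2A and RPP2B took 0.842% and 0.906% in gat1-delta glutamine, 0.469% and 0.510% in proline, and 0.949% and 0.941% in dal80-delta. Their share was lowest in the proline libraries, with the same smallest p of 0.333. The values are shares of gene reads, so a share can also fall where other genes take more reads. In cultures sampled in bulk, such a shift, fewer cells with a transcript and less of it per cell cannot be told apart.

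The first comparison asked how the medium bears on these genes in gat1-delta cells. Proline cells had more RNA of a few low copies and less RNA of many high ones. RPL22B and RPL15B, the weakly expressed copies of their pairs, rose most. The stalk genes, both copies of the L1 stalk protein, RPL16B and RPL2B fell. Of the 81 genes 16 rose, 25 fell and 40 did not pass (limma, adjusted p under 0.05), where 71.6% of all 5594 genes passed, 56.5% higher and 15.1% lower. RPP1 rose as well (log2 fold change 0.60 ± 0.136 (SE), adjusted p = 0.00361), from 179 and 185 to 305 and 268 scaled reads.

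The split between rises and falls depends on the scaling of the libraries. With the deposited scaling the median log2 fold change was -0.05 over the 81 genes and 0.50 over all genes, and 68 of the 81 lay below the latter. With TMM scaling, which sets the libraries level on the genes that vary least in their log ratio, the median of all genes was 0.06 and that of the 81 was -0.56, and 3 genes rose and 50 fell, against 33.8% and 29.8% of all genes. RLE scaling gave 3 and 51 (all genes 31.4% and 31.7%), edgeR on recovered reads 3 and 50 (33.5% and 30.2%) and DESeq2 3 and 53 (29.5% and 31.1%). With TMM the estimates of 23 of the 81 genes turned from positive to negative, and 4 of these, RPL20B, RPL26A, RPL27B and RPL33B, had been called higher with the deposited scaling. RPL22B, RPL15B and RPL7B rose and 25 genes fell in each of 5 fits, with the deposited scaling, TMM, RLE, edgeR and DESeq2. How many of all genes did so was not counted. In a single fit 29.5% to 56.5% of all genes rose and 15.1% to 31.7% fell. Fewer members were called higher without replicate 2 of gat1-delta glutamine, a fit that leaves 1 library in that group. The share of all genes called in that fit is not given here. The 2 groups did not overlap in 25 genes that were higher in proline and 32 that were lower, against 65.9% and 20.6% of all genes. The plot of fold changes by gene shows 79 of the 81 values with the median of all genes.

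**Figure D1:**
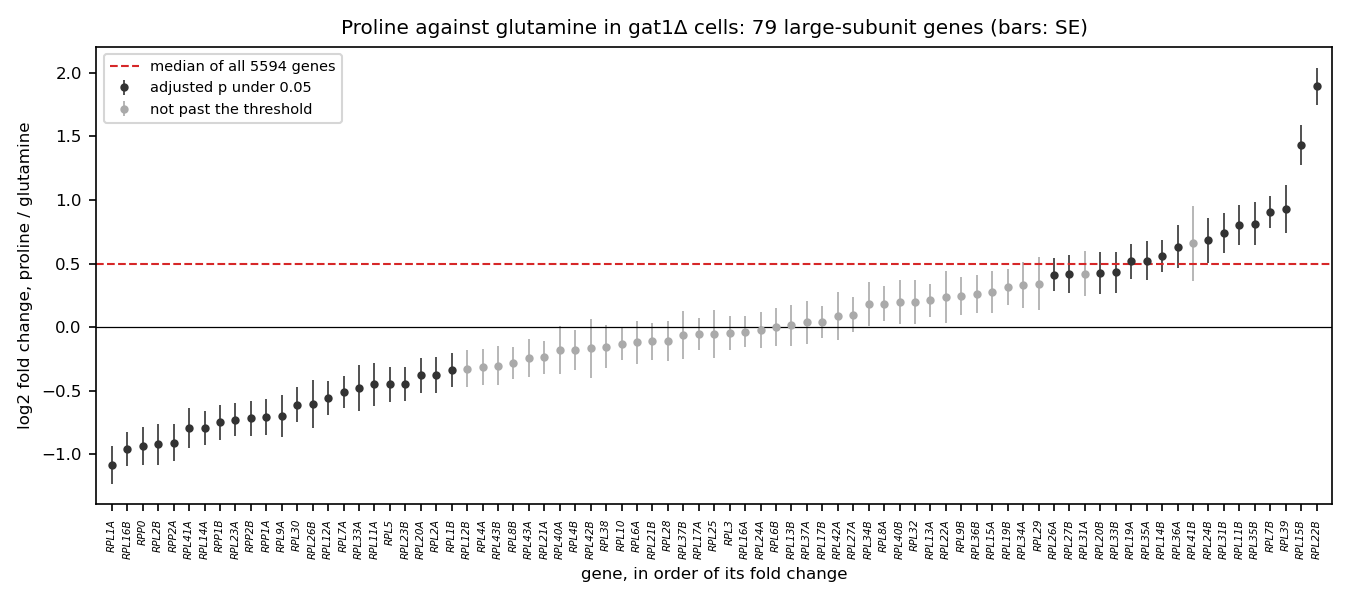
Log2 fold change of 79 large-subunit genes in gat1-delta cells, proline over glutamine, with the deposited scaling, in order of size; points are limma estimates from 2 libraries a group, bars their SE, dark points have an adjusted p under 0.05 and the dashed line is the median of all genes (0.50). The values run from -1.08 for RPL1A to 1.89 for RPL22B, and 66 of 79 lie under the dashed line.

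RPL22B (YFL034C-A) codes for the minor copy of eL22, a protein that in yeast is known to hold back splicing of the RPL22B transcript. It stood at 694 and 541 scaled reads in gat1-delta glutamine, 2300 and 2345 in proline, and 476 and 489 in dal80-delta. Both proline libraries were far above all 4 glutamine libraries. The count of a gene does not tell spliced from unspliced RNA, so their parts in this rise were not tested. The log2 fold change of RPL22B was 1.89 ± 0.145 (SE, adjusted p = 1.24e-05), and 1.40 with TMM. RPL22A, its partner, stood at 7285 and 5614 in gat1-delta glutamine, 7210 and 7864 in proline, and 4223 and 6218 in dal80-delta. The groups overlapped, and its log2 fold change of 0.24 ± 0.204 did not pass (adjusted p = 0.320) and was -0.27 with TMM.

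RPL15B (YMR121C) is the minor copy of eL15, an essential protein of the subunit core. Its scaled reads were 168 and 151 in gat1-delta glutamine, 413 and 497 in proline, and 129 and 163 in dal80-delta, so that only the proline libraries stood apart. The log2 fold change was 1.43 ± 0.159 (adjusted p = 7.07e-05). RPL15A, with 17504 and 14388 scaled reads in glutamine and 19060 and 19380 in proline, did not pass (0.28 ± 0.167, adjusted p = 0.164) and was at -0.23 with TMM.

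RPL39 (YJL189W) had 2031 and 1500 scaled reads in gat1-delta glutamine, 3287 and 3370 in proline, and 1067 and 1442 in dal80-delta. The proline values were the highest and did not overlap with the others. RPL39 rose by the deposited scaling (0.93 ± 0.189, adjusted p = 0.00202) and did not pass with TMM (0.42, adjusted p = 0.0784). RPL7B (YPL198W), the minor copy of uL30, had 2226 and 1975 scaled reads in gat1-delta glutamine, 3916 and 4000 in proline, and 1539 and 1655 in dal80-delta. It too was highest in both proline libraries (0.90 ± 0.127, adjusted p = 0.000263, and 0.41 with TMM, adjusted p = 0.0247).

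The introns of RPL7A and RPL7B hold the snoRNA genes SNR39 and SNR59, which guide chemical marks on rRNA. SNR39 had 5501 and 4778 scaled reads in gat1-delta glutamine beside 13622 and 12249 for RPL7A, and SNR59 had 661 and 604 beside 2226 and 1975 for RPL7B. Whether reads of a snoRNA also entered its host's count is not given in the sources used here. RPL29 shares 62 bases on the same strand with YFR032C-B. It had 3379 and 2235 scaled reads in gat1-delta glutamine, 3335 and 3643 in proline, and 2072 and 2718 in dal80-delta, with overlapping groups and no call (0.34 ± 0.210, adjusted p = 0.170, and -0.16 with TMM).

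**Figure D2:**
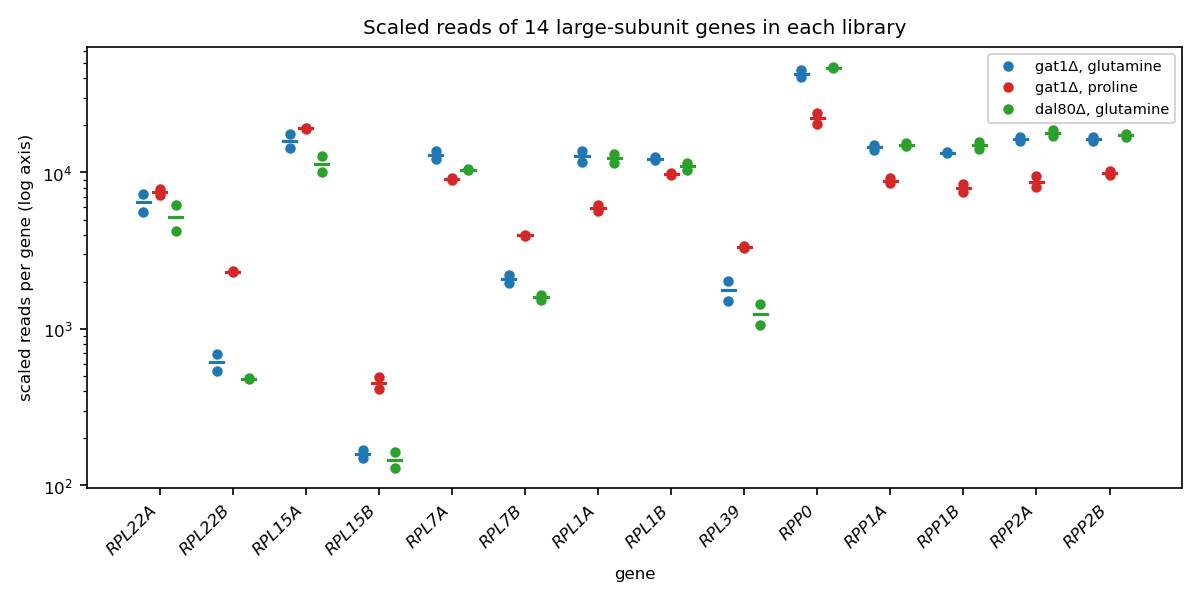
Scaled reads of 14 large-subunit genes in each of 6 libraries on a log axis; points are libraries and short lines the mean of the 2 libraries of a group. In proline RPL22B (2300 and 2345) and RPL15B (413 and 497) sit above both glutamine groups, and RPL1A and the 5 RPP genes below them.

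Of the 7 genes for the P stalk and its base 6 fell and RPL12B did not pass (-0.33, adjusted p = 0.0655), where 15.1% of all genes fell, and all 7 fell with TMM, where 29.8% of all genes did. The P stalk is the flexible arm that recruits the GTPases of translation, such as the elongation factors. RPP0 (YLR340W), the protein that anchors it, had 40455 and 44966 scaled reads in gat1-delta glutamine, 20477 and 24161 in proline, and 47168 and 46213 in dal80-delta. The proline values were well under all others (-0.94 ± 0.150, adjusted p = 0.000514).

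RPP1A and RPP1B code for the P1 proteins, and RPP2A and RPP2B for the P2 proteins that bind RPP0 with them. RPP1A had 13949 and 14938 scaled reads in gat1-delta glutamine, 9158 and 8537 in proline, and 15438 and 14708 in dal80-delta. RPP1B had 13258 and 13540, then 7462 and 8489, then 15696 and 14063. In both genes the proline libraries were the lowest, with log2 fold changes of -0.71 and -0.75. RPP2A had 15985 and 16759 scaled reads in gat1-delta glutamine, 8044 and 9452 in proline, and 17018 and 18562 in dal80-delta. RPP2B had 15864 and 16960, then 10254 and 9687, then 16853 and 17678. The log2 fold changes with the medium were -0.91 and -0.72, and again no proline library reached a glutamine library. The adjusted p of these 4 genes ran from 0.000607 for RPP2A to 0.00166 for RPP1A. RPL12A, which codes for the stalk base protein uL11, fell by 0.56 on the log2 scale (adjusted p = 0.00492).

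Both copies of the L1 stalk protein, which moves with the tRNA that leaves the ribosome, fell. RPL1A (YPL220W) had 13640 and 11727 scaled reads in gat1-delta glutamine, 5709 and 6228 in proline, and 11478 and 13217 in dal80-delta. This was the lowest log2 fold change of the set (-1.08 ± 0.148, adjusted p = 0.000223). RPL1B fell less (-0.33 ± 0.133, adjusted p = 0.0467), and since 80.99% of their stretches of 50 bases are shared, the division between the copies is uncertain.

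RPL16B (YNL069C), a copy of uL13, had 29100 and 29622 scaled reads in gat1-delta glutamine, 14498 and 15652 in proline, and 29388 and 27627 in dal80-delta. RPL2B (YIL018W), a copy of uL2 near the peptidyl transferase centre, had 35208 and 40770, then 18003 and 22139, then 43082 and 37815. In both, the proline libraries lay below every glutamine library (RPL16B -0.96 ± 0.133, adjusted p = 0.000243, and RPL2B -0.92 ± 0.163, adjusted p = 0.000911). Of the 4 core genes RPL2A and RPL2B fell, and RPL3 (-0.05) and RPL10 (-0.13) did not pass with the deposited scaling and fell in the TMM, RLE, edgeR and DESeq2 fits.

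In the 5S particle, which holds the 5S rRNA, RPL5 (-0.45, adjusted p = 0.0158) and RPL11A (-0.45, adjusted p = 0.0357) fell and RPL11B rose (0.80, adjusted p = 0.00156, and 0.30 with TMM, adjusted p = 0.122). Of the 5 genes of the exit tunnel wall RPL39 rose and none fell, and with TMM none rose and 4 fell. On the rim of the tunnel exit, where chaperones and the targeting particle dock, 5 of 9 genes rose, a share close to the 56.5% of all genes, among them RPL35B (0.81, adjusted p = 0.00215) and RPL31B (0.74, adjusted p = 0.00269), and RPL26B fell. With TMM none of the 9 rose and 2 fell. Neither ubiquitin fusion gene, RPL40A or RPL40B, passed with the deposited scaling, while RPL40A fell with TMM (-0.68, adjusted p = 0.0117) and in the RLE, edgeR and DESeq2 fits. Of the genes for the bridge proteins eL24 and eL41, RPL24B rose and RPL41A fell, and with TMM none rose and 2 fell. Of 5 genes known in yeast to be held in check through their own transcripts, RPL2A, RPL2B and RPL30 fell and RPL22B rose, in the TMM fit too.

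Genes with a high level had the lower fold changes. Over the 81 genes the log2 fold change with the medium had a Spearman rho of -0.75 and a Pearson r of -0.79 with the log2 level per coding base in dal80-delta glutamine, libraries that do not enter the fold change. Over 5586 genes the rho was -0.41. The genes share libraries and scaling and are not independent, so this is a description.

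**Figure D3:**
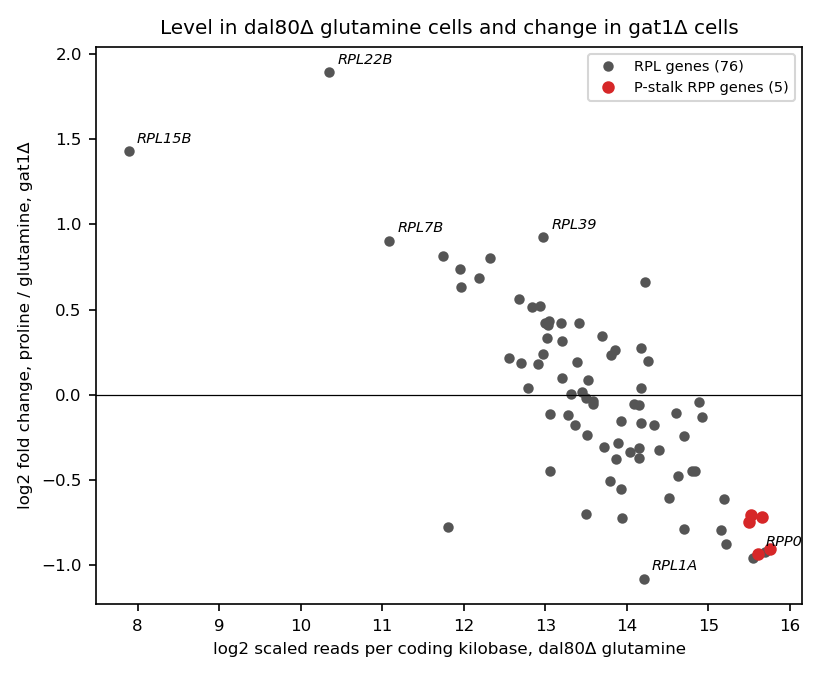
Log2 fold change in gat1-delta cells, proline over glutamine, against the log2 of scaled reads per coding kilobase in dal80-delta glutamine, with a point for each of 81 large-subunit genes and the 5 RPP genes in red. The low copies RPL15B, RPL22B and RPL7B are at the upper left and the RPP genes at the lower right (rho = -0.75).

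A and B copies were compared inside each library, where the scaling cancels. The A-to-B ratio changed in 24 of the 35 pairs (68.6%), 7 toward A and 17 toward B (limma over all 61 pairs of genes named A and B, adjusted p under 0.05). Over all 61 pairs, which include these 35, 68.9% changed, and of the 26 pairs outside the large subunit 69.2%. Of those 26 pairs 24 are small-subunit pairs. The share is thus close to that of other ribosomal protein pairs, and it was not compared with paralogs at large. The changes that passed ran from 0.20 to 1.66 in size on the log2 scale. When the copy with the lower level in dal80-delta glutamine was taken as the minor copy, the minor copy gained in 22 of the 24 pairs, the exceptions being RPL12 and RPL23, and in 28 of all 35. Over all 61 pairs it gained in 39 of 42 changed pairs and in 48 in all, so these counts too are near those of all pairs, most of them ribosomal. Taken gene by gene, 14 of the 35 minor copies rose and 7 fell, while 1 major copy, RPL35A, rose and 15 fell. With TMM 3 minor copies rose and 14 fell, and 0 major copies rose and 28 fell. The median size of the log2 ratio was 0.84 in gat1-delta glutamine, 0.60 in gat1-delta proline and 0.89 in dal80-delta glutamine.

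RPL22A made up 91.4% and 91.3% of the reads of its pair per coding base in gat1-delta glutamine, 75.96% and 77.2% in proline, and 89.9% and 92.8% in dal80-delta. The proline shares were the lowest, and the log2 ratio fell by 1.66 ± 0.170 (SE, adjusted p = 0.000228), the largest change of the 35 pairs. This pair has no shared stretch of 50 bases, and its copies differ at many bases of the last exon printed earlier.

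RPL7A took 86.0% and 86.1% of its pair in gat1-delta glutamine, 69.5% and 69.7% in proline, and 87.0% and 86.4% in dal80-delta (change -1.42 ± 0.0810, adjusted p = 3.09e-05). With the reads of the intron snoRNAs taken off both copies, an alternative chosen after seeing the data, the change was -1.62. RPL14A, a copy of eL14, took 81.9% and 80.5%, then 62.2% and 63.4%, then 79.9% and 80.5% (-1.35 ± 0.0670, adjusted p = 2.58e-05). In both pairs the proline libraries stood apart from all 4 others. RPL14A fell from 13157 and 12182 to 6887 and 7735 scaled reads, and RPL14B rose from 2906 and 2952 to 4183 and 4470, the latter by the deposited scaling, and at 0.06 with TMM (adjusted p = 0.753).

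The order of the copies turned in 5 of the 35 pairs, RPL9, RPL11, RPL20, RPL27 and RPL41. In these A was above B in all 4 glutamine libraries and below it in both proline libraries. Over all 61 pairs the order turned in this way, in either direction, in 8, so the share is near that of all pairs. RPL11A took 61.5% and 60.9% of its pair in gat1-delta glutamine, 37.9% and 41.6% in proline, and 61.1% and 63.5% in dal80-delta (-1.26 ± 0.0897, adjusted p = 5.98e-05). RPL41A, for the smallest ribosomal protein, took 67.3% and 72.6%, then 44.6% and 47.5%, then 72.1% and 60.8% (-1.45 ± 0.264, adjusted p = 0.00315). The spread between dal80-delta replicates was wide for RPL41, and both pairs share over 50% of their stretches of 50 bases.

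RPL15 was the most unequal pair. RPL15A took 99.0% and 99.0% of it in gat1-delta glutamine, 97.9% and 97.5% in proline, and 98.7% and 98.7% in dal80-delta. The log2 ratio fell by 1.15 ± 0.112 (adjusted p = 0.000195), on a scale with a pseudocount, which understates the change of a gene as low as RPL15B.

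Toward A, the largest changes were those of RPL26 (1.02 ± 0.149, adjusted p = 0.00118) and RPL16 (0.93 ± 0.0490, adjusted p = 2.58e-05). RPL16A took 22.1% and 22.0% of its pair in gat1-delta glutamine, 35.4% and 34.5% in proline, and 20.1% and 20.8% in dal80-delta, and this pair has no shared stretch of 50 bases. RPL16B fell in each fit, while RPL16A did not pass with the deposited scaling (-0.04) and fell with TMM (-0.54, adjusted p = 0.0111). Neither stalk pair passed. The difference in the log2 ratio of RPP1A to RPP1B was 0.04 (95% interval -0.25 to 0.34, adjusted p = 0.744) and that of RPP2A to RPP2B -0.19 (interval -0.65 to 0.27, adjusted p = 0.388).

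**Figure D4:**
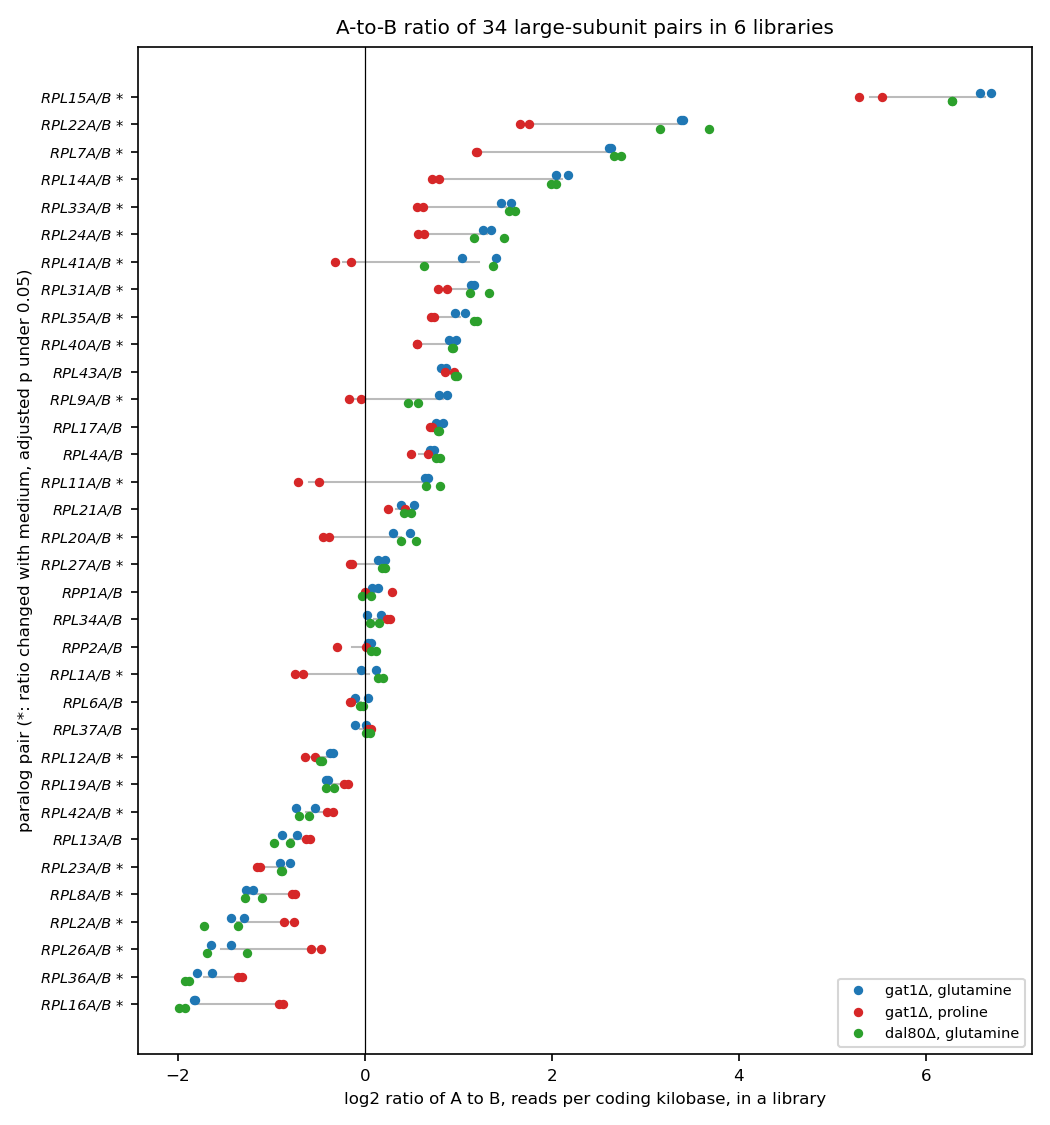
Log2 ratio of A to B reads per coding kilobase in each of 6 libraries for 34 large-subunit pairs; points are libraries, grey lines join the gat1-delta means in glutamine and proline, and a star marks a ratio that changed with the medium (adjusted p under 0.05, 24 pairs). In 26 of the 34 pairs the proline mean lies nearer to 0 than the dal80-delta mean, with RPL22, RPL7 and RPL14 among the widest shifts. The same held for 49 of all 61 pairs and for 22 of the 26 outside the large subunit, so it is not particular to these pairs.

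Changed ratios were counted by how far the copies share sequence. Of the 29 pairs with at most 50% shared stretches 19 changed (65.5%), and of the 6 pairs above 50% 5 changed (83.3%). Of the 10 pairs with no shared stretch 5 changed (50.0%). Of the 12 pairs with identical proteins 10 changed (83.3%) and of the 23 with differing proteins 14 (60.9%). The difference between these shares was not tested.

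The second comparison set dal80-delta against gat1-delta cells in glutamine. No large-subunit gene passed the test. The limma fit called 0 of the 82 genes, where 5.45% of all genes passed. edgeR and DESeq2 also called 0 of them, against 8.10% and 9.35% of all genes. At an unadjusted p under 0.05 limma had 37 of the 82, all lower. Over all 5594 genes it had 28.4% in either direction, with 1094 genes lower and 493 higher. Of the 81 ribosomal protein genes 73 had a negative and 8 a positive estimate. The median log2 fold change of the 81 was -0.35, against -0.15 over all genes, and with TMM -0.19 against -0.01. The groups did not overlap in 57 genes that were lower and 4 that were higher (RPL4A, RPP0, RPP1B and RPP2A), against 46.4% and 17.4% of all genes. The lowest adjusted p was 0.0600, for RPL41A, with 4763 and 3948 scaled reads in gat1-delta and 2678 and 3008 in dal80-delta.

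The 5 stalk genes had log2 fold changes between 0.06 for RPP1A and 0.15 for RPP1B, with an SE of 0.14 to 0.15. The median log2 ratio of replicate 2 to replicate 1 over the 81 genes was -0.23 in gat1-delta glutamine and 0.17 in dal80-delta, and over the members it had a Spearman rho with coding length of 0.57 and -0.40. In gat1-delta proline these were 0.07 and -0.02. Over all genes the medians in gat1-delta glutamine, dal80-delta and gat1-delta proline were -0.12, -0.0081 and -0.064. Over 5586 genes the rho was 0.24, -0.31 and -0.059 in that order. The log2 fold change between strains had a rho with coding length of 0.31 over the 81 genes and 0.026 over 5586 genes. The members share libraries, so these are descriptions, and their part in the comparison was not tested.

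**Figure D5:**
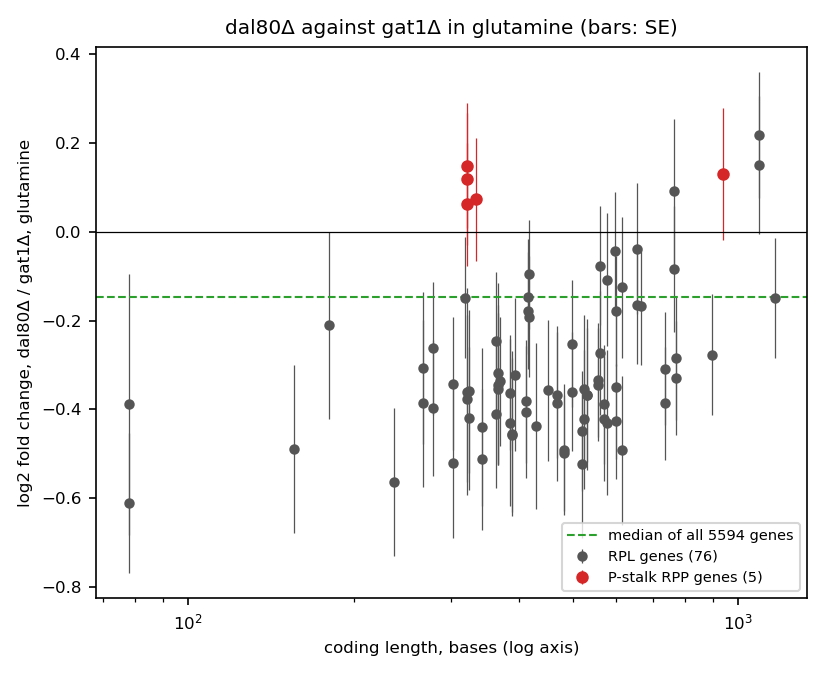
Log2 fold change in glutamine, dal80-delta over gat1-delta, against coding length on a log axis for 81 large-subunit genes; points are limma estimates from 2 libraries a group, bars their SE, the 5 RPP genes are red and the dashed line is the median of all genes (-0.15). No gene has an adjusted p under 0.05, and the RPP genes lie above 0.

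The A-to-B ratio changed between the strains in 0 of 35 pairs (limma, 0.00% of all 61 pairs), with 4 at an unadjusted p under 0.05. The lowest adjusted p was 0.127, for RPL9 (change -0.32, 95% interval -0.48 to -0.16). Other pairs with large estimates were RPL15 (-0.37, interval -0.64 to -0.10), RPL41 (-0.22, -0.87 to 0.42), RPL36 (-0.18, -0.37 to 0.02) and RPL2 (-0.17, -0.49 to 0.14). Over the 35 pairs the intervals lay between -0.87 and 0.51. For RPL22, whose ratio moved most with the medium, the difference was 0.02 (interval -0.40 to 0.43).

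Genes that act on or with the large subunit were counted beside all genes, of which 56.5% rose and 15.1% fell with the medium (33.8% and 29.8% with TMM). Of 15 regulators of ribosomal protein genes 14 rose and none fell, and with TMM 9 rose and 1 fell. IFH1, the coactivator of ribosomal protein genes, rose by 1.88 ± 0.162 (adjusted p = 2.11e-05), CRF1, a corepressor that competes with it, by 1.93 ± 0.191 (4.04e-05), and RRP7, a partner of Ifh1 in rRNA processing, by 1.42 ± 0.131 (3.00e-05). Of 50 assembly and loading factors of the large subunit 47 rose and none fell (all genes 56.5% and 15.1%), and with TMM 37 rose (33.8%). LOC1 (2.47 ± 0.138), NOP15 (2.46 ± 0.177) and RPF1 (2.38 ± 0.149), all nucleolar factors, had the smallest adjusted p. In dal80-delta against gat1-delta 4 of the 50 fell (all genes 1.48% lower), and with TMM 2 (0.894%). They were CIC1 (-0.69, adjusted p = 0.0205), BRX1 (-0.69, adjusted p = 0.0249), RRP1 (-0.66, adjusted p = 0.0260) and RRB1 (-0.63, adjusted p = 0.0344).

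Of 11 elongation factor genes 8 fell in proline and 1 rose (all genes 15.1% and 56.5%), and with TMM 10 fell and 1 rose (29.8% and 33.8%). EFT1, for eEF2, fell by 1.39 ± 0.142, TEF4, for a subunit of eEF1B, by 1.48 ± 0.160, and HYP2, for eIF5A, by 1.15 ± 0.137. ANB1, the form of eIF5A known from cells short of oxygen, stood at 39.4 and 31.2 scaled reads in glutamine and 76 and 62.5 in proline (0.80 ± 0.157, adjusted p = 0.00169), and edgeR and DESeq2 called 0 of the 11 higher. The 56 small-subunit genes, set beside the large subunit, had 5 rises, 19 falls and a median of -0.21 in proline (all genes 56.5% higher and 15.1% lower), and with TMM 0 rises and 42 falls (33.8% and 29.8%). Of their 24 pairs 17 changed ratio (70.8%), with the minor copy of dal80-delta gaining in 16.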

How the data were processed

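Total RNA extracted with hot phenol was depleted of rRNA and made into strand-specific libraries, read as pairs of 50 nt, per the labels' protocols. The submitters' processing notes name TopHat and build R64, and how reads were counted is not stated there. Per the file headers, the table holds a density signal and a read count for each feature and library. The count deposited for gat1-delta proline replicate 1 is whole, and the deposited counts of the other libraries are whole multiples of a step, so whole reads were recovered for 100% of positive values within 0.01 reads. The deposited density signal equals the scaled count over the feature length, introns included. Replicates differed by more than sampling noise (chi-square per degree of freedom 41.6 to 70.8), and no label says more of them than a number. A further 6 columns of group values were not used.

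Genes with at least 10 scaled reads in 2 libraries (5594, all 82 members among them) entered a limma fit (version 3.58.1, R 4.3.3). It used log2(density + 0.0229), the added value being the density at percentile 5 of all positive ones, a mean-variance trend and the group as the only factor, with 3 residual degrees of freedom and Benjamini-Hochberg adjustment over all genes. A count model had been planned for unscaled counts only. edgeR 4.0.16, which called 3561 genes for the medium and 453 for the strain, and DESeq2 1.42.0 were therefore run on the recovered reads as alternatives. Log2 A-to-B density ratios were tested with limma over 61 pairs. The code was tested on simulated data. Fold changes on this scale understate those of low genes. Samples were grouped by title.

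Members and lists were chosen with earlier results of these data known. Genes named are the 4 with the largest rise and fall, the stalk genes, the extremes of level, the pairs with the 6 largest ratio changes and the 4 most unequal, overlapping genes, and up to 3 each way per list. ACL4, SYO1 and EFL1 were not found under those names. Further genes of the structural groups, RPL16A, RPL26, RPL35A and pairs named for a turned order were named after their values were seen. Of the members 78 of 82 had the span of the RefSeq R64 annotation. Of the pairs that this rule takes, 1 is not reported here and is left out of the plots that name genes; counts over all members include it.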

Additional observations from a re-analysis of the deposited data

How the results depend on the processing

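In proline against glutamine, 17 of the 82 genes were higher and 25 lower. The higher count was 3 with TMM, RLE, edgeR and DESeq2 alike, and the lower count was 50, 51, 50 and 53 in that order, while the median log2 fold change of all genes went from 0.50 with the deposited scaling to 0.06 with TMM. Leaving out each library in turn gave 9 to 22 higher and 19 to 23 lower, with 9 without gat1-delta glutamine replicate 2. Estimates of 23, 25, 23 and 25 of the 81 genes turned negative with TMM, RLE, edgeR and DESeq2, in that order. Of these 4, 6, 4 and 6 had been called higher with the deposited scaling, and 0 of those were called lower after turning. Among genes described one by one the values were, in the same order, for RPL29 (-0.16, -0.21, -0.18, -0.23), RPL22A (-0.27, -0.32, -0.27, -0.32) and RPL15A (-0.23, -0.28, -0.23, -0.28). Among ratios between strains, those of fits without a library ran from -0.59 to 0.14 for RPL41 (0.14 without dal80-delta replicate 2) and from -0.36 to 0.0086 for RPL2 (0.0086 without dal80-delta replicate 1), and neither had passed. RPL11A lost its call in 3 of the fits without a library and with the replicate block.

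Deviations from the group mean in libraries of the same replicate number correlated at 0.00984, -0.25 and -0.0793. The value of -0.25, for gat1-delta glutamine with dal80-delta, is a deviation in opposite directions. No shared deviation by number was seen, but with 2 libraries a group this cannot tell whether such libraries were prepared together. With the replicate number as a block 34 of 82 genes passed for the medium, 14 higher and 20 lower, and 0 for the strain, and 24 and 0 ratios changed. The share of all genes that passed with the block is not given here. The number of changed ratios lay between 19 and 24 under all alternatives run. The share of gene reads kept its direction in all alternatives run. With 2 libraries a group small differences were not detectable, and values of near-identical copies depend on how reads with several matches were counted.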
